A study of Mus musculus with 6 samples.

Results

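The 9 genes described here code for subunits of Polycomb repressive complex 1 (PRC1), together with the chromodomain proteins that let it read H3K27me3. They are Cbx2, Cbx6, Cbx7, Cbx8, Bmi1, Pcgf2, Rnf2, Ring1 and Phc2, chosen by symbol from the 55341 genes of the count tables. All 9 had a row in every table, and all 9 were among the 16729 genes that passed the filter on low counts. PRC1 was not the target of the drug used. The comparison asks whether RNA of the complex that reads the mark differed when the enzyme that writes it was inhibited.

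RNA was measured in cultured mouse cerebellar granule neurons (CGNs), 3 libraries from cultures given the vehicle DMSO and 3 from cultures that received GSK-126, which inhibits the methyltransferase EZH2. Means are given ± SD over the 3 libraries of a group throughout. Granule neuron progenitors of CD1-IGS pups of both sexes, aged P6 to P8, were plated, all cultures received cytosine arabinoside on DIV2 to stop division of non-neuronal cells, and DMSO or GSK-126 was added once at DIV3. The labels name DIV3 and cerebellar tissue, while the study's methods describe cultures collected at DIV5, and the dose given at DIV3 is not given in the sources used here. A biological replicate was CGNs from pooled litters, and the labels give no genotype difference between the groups.

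Polycomb proteins keep developmental genes silent in 2 steps. PRC2, which contains EZH2 or EZH1, trimethylates lysine 27 of histone H3, and PRC1 compacts chromatin and adds ubiquitin to histone H2A, the mark H2AK119ub. Every PRC1 holds RING1 or RNF2 (RING1B), the ubiquitin ligases, bound to a PCGF protein. In canonical PRC1 that protein is PCGF2 (MEL18) or PCGF4 (BMI1), joined by a CBX protein whose chromodomain binds H3K27me3 and by a PHC protein that polymerizes and gathers Polycomb sites into larger domains. Variant PRC1 carries RYBP or YAF2 in place of CBX and can reach chromatin without the mark.

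Counts on genes ranged from 7407189 to 13092763 per library. Granule neuron markers were abundant, with 12 of 12 tested and a summed level of 4500 to 7290 CPM (counts relative to library size, scaled by edgeR's TMM factors) under DMSO and 3549 to 5653 CPM under GSK-126. Markers of other cells were present as well, at 2170 to 7022 and 2116 to 7427 CPM for 8 astroglial genes and 7376 to 9895 and 8423 to 10699 CPM for 8 genes of fibroblasts, mural and endothelial cells. Libraries with the same replicate number deviated together, and replicate 2 of both groups stood apart from the others on the main principal component (46.4% of the variance), with astroglial sums of 2170 and 2116 CPM that were the lowest of their groups. For this reason each test is given without and with the replicate number as a block. Replicate 2 of both groups also had more RNA of Y-linked genes (221 and 178 CPM, against 87.3 to 115 in the other libraries). Its Xist level was lower (758 and 726 CPM, against 1130 to 1286), so the mix of sexes differed between replicate numbers as well. In bulk RNA, fewer cells of a type and less RNA per cell cannot be told apart.

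Of the 9 genes, 0 passed without the block (edgeR's quasi-likelihood test, Benjamini-Hochberg adjusted p under 0.05), where 0.00% of all tested genes passed. At an unadjusted p under 0.05 there was 1, Cbx6, which was lower, where 2.21% of all genes were lower and 1.77% higher (3.98% in all), and DESeq2's Wald test without the block also passed 0. With the block, 1 of 9 was called lower and 0 higher, and the background was 5.09% of all tested genes lower and 3.35% higher, or 8.44% in either direction (561 genes higher and 851 lower, against 727 and 698 under upper-quartile scaling). The gene was again Cbx6. The groups did not overlap for 1 of the 9, which was lower, where this held for 4.72% of all tested genes in the lower and 4.72% in the higher direction (9.44% in all). All 3 pairs were lower for 3 of the 9 and higher for 0, where 22.8% of all genes were lower in all pairs and 19.5% higher (42.3% in all). The median log2 fold change of the 9 was -0.084 in both fits, but 0.042 without GSK-126 replicate 3, 0.056 with the block without pair 3 and -0.26 without GSK-126 replicate 2, and that of all tested genes was -0.0071 without and -0.0056 with the block. A share of 1 in 9 lies near that of all genes and is no result about the 9 genes as a group.

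**Figure D1:**
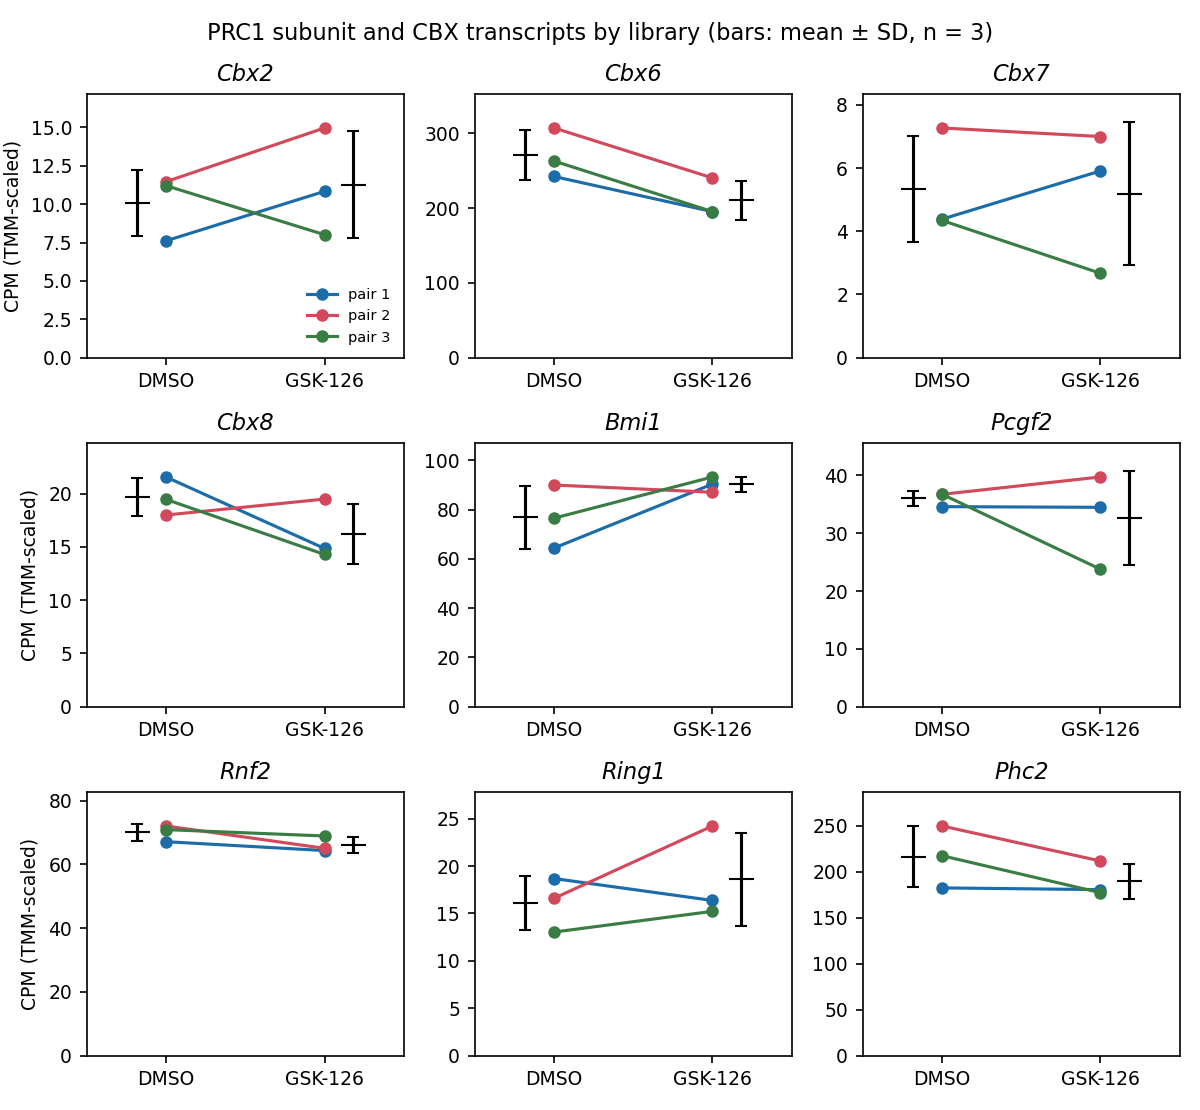
Each panel plots 1 gene, with the TMM-scaled CPM of each library on the y axis from 0, lines joining the DMSO and GSK-126 libraries of 1 replicate number, and black bars for the mean ± SD (n = 3). Only for Cbx6 did all GSK-126 libraries (195 to 240.5 CPM) lie below all DMSO libraries (242 to 307 CPM).

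Among the 4 CBX members, Cbx6 was the most abundant and the one that fell in the fit with the block. Cbx6 (ENSMUSG00000089715.12, GRCm38 chromosome 15, 79823896 to 79834688, minus strand) codes for a chromodomain protein of canonical PRC1 that is prominent in neural cells. Its level was 242, 307 and 263 CPM in DMSO replicates 1, 2 and 3 and 195, 240.5 and 195 CPM in GSK-126 replicates 1, 2 and 3. The lowest DMSO library stood just above the highest GSK-126 library, so the groups did not overlap, and replicate 2 was the highest library of each group. Mean levels were 271 ± 33.2 CPM under DMSO and 210.4 ± 26.0 CPM under GSK-126. The log2 fold change of Cbx6 was -0.37 (standard error 0.15, adjusted p = 0.953) without the block and -0.36 (standard error 0.071, adjusted p = 0.00231) with it, both from edgeR's quasi-likelihood test. With the block this was a change of -22.3% with a 95% interval from -29.9% to -13.9%. Without pair 1, 2 or 3 that fit still called Cbx6 (adjusted p = 0.00891, 0.00851 and 0.0207). The log2 ratios within pairs 1, 2 and 3 were -0.31, -0.35 and -0.43. The exact permutation test over libraries gave p = 0.1 (two-sided), the smallest that 3 against 3 allow. That test ignores the pairs and gives this value whenever the groups do not overlap, so it adds nothing to the non-overlap.

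Cbx6 shares part of its exons with a neighbour. Its exons overlap those of Npcd over 563 bp on the same strand, a locus whose exons all lie within those of Cbx6 or of Nptxr, the neuronal pentraxin receptor gene downstream of it. Npcd had 0 counts in all 6 libraries. Reads in exons that 2 genes share are set aside as ambiguous by HTSeq's default. The value of Cbx6 thus rests on the rest of its 10609 bp of exons, and that of Nptxr on the exons not shared with Npcd. Nptxr was at 323 ± 140.2 CPM under DMSO and 174 ± 64.9 CPM under GSK-126, and its log2 fold change was -0.86 with the block (edgeR, adjusted p = 2.3e-07) and -0.89 without it (adjusted p = 0.953). The granule neuron markers moved the same way. With the block 9 of 12 were called lower and 0 higher, and their median log2 fold change was -0.43. Of 7 tested markers of GABAergic neurons and Purkinje cells, 3 were called lower as well. Called higher were 2 of 8 astroglial and 2 of 7 tested fibroblast, mural and endothelial markers, with 0 lower. The same held for 2 of 8 microglial, 1 of 8 oligodendrocyte lineage and 1 of 8 tested dividing progenitor markers, also with 0 lower. Over all tested genes, 5.09% were called lower and 3.35% higher. Of the 12 granule markers, 0 were under 1 CPM in all libraries. The part of the granule markers' fall in that of Cbx6 was not tested.

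The other CBX members were lower in level and none passed. Cbx8 (chromosome 11, 119036305 to 119040969), a canonical PRC1 reader, was at 21.6, 18 and 19.5 CPM under DMSO and 14.9, 19.5 and 14.3 CPM under GSK-126. Replicates 1 and 3 were lower under GSK-126 and replicate 2 was higher, so the groups overlapped. The log2 fold change of Cbx8 with the block was -0.29 (95% interval -0.62 to 0.048, edgeR adjusted p = 0.319), and it was -0.14 without pair 1 and -0.49 without pair 2. Cbx2 (chromosome 11, 119022962 to 119031270), whose protein compacts nucleosomes, was at 7.61, 11.5 and 11.2 CPM under DMSO and 10.8, 15 and 8.01 CPM under GSK-126. Pairs 1 and 2 of Cbx2 went up and pair 3 went down, with a log2 fold change of 0.15 (95% interval -0.28 to 0.58, edgeR adjusted p = 0.732 with the block). Cbx7 (chromosome 15, 79915807 to 79971119), a reader known from stem cells, was at 4.38, 7.27 and 4.35 CPM under DMSO and 5.91, 7.0 and 2.67 CPM under GSK-126. These rest on 20 to 78 counts of Cbx7 per library, and the 95% interval of its log2 fold change with the block, -0.63 to 0.51, leaves changes of either sign undetected at this depth. Its exons share 100 bp with Apobec3 on the opposite strand.

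Cbx2 and Cbx8 lie 5.0 kb apart on opposite strands of chromosome 11, and Cbx6 and Cbx7 lie 81.1 kb apart on the minus strand of chromosome 15, with no protein-coding gene between either pair.

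Transcripts of the catalytic subunits did not pass either. Rnf2 (chromosome 1, 151458004 to 151500955), which encodes the main H2A ubiquitin ligase RING1B, was at 67.1, 72.1 and 70.9 CPM under DMSO and 64.3, 65.1 and 68.9 CPM under GSK-126. All pairs of Rnf2 were lower, with log2 ratios of -0.061, -0.15 and -0.041, yet the highest GSK-126 library lay above the lowest DMSO library. The log2 fold change of Rnf2 was -0.084 (standard error 0.089, edgeR adjusted p = 0.646 with the block), a change of -5.63% with a 95% interval from -17.0% to 7.34%. Its exons share 158 bp with Trmt1l on the opposite strand. Ring1 (chromosome 17, 34020792 to 34024680), the paralog of Rnf2, was at 18.7, 16.6 and 13.0 CPM under DMSO and 16.4, 24.2 and 15.2 CPM under GSK-126. Pair 1 of Ring1 went down and pairs 2 and 3 went up, and its 95% interval with the block ran from -9.71% to 45.0% (edgeR adjusted p = 0.540).

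Of the PCGF genes, Bmi1 was the member with the highest positive value. Bmi1 (chromosome 2, 18677018 to 18686629), known for silencing the Cdkn2a locus and for self-renewal of neural progenitors, was at 64.4, 90.0 and 76.5 CPM under DMSO and 90.3, 87.0 and 93.2 CPM under GSK-126. The GSK-126 libraries lay close together near the top of the DMSO range, and pair 2 did not rise. Mean levels of Bmi1 were 76.9 ± 12.8 CPM and 90.2 ± 3.11 CPM, and the log2 fold change of 0.24 with the block (standard error 0.097, 95% interval 0.037 to 0.44) had an unadjusted p of 0.0231 and an adjusted p of 0.150 from edgeR. Leaving pair 2 out of that fit gave 0.39 with an adjusted p of 0.0273, past the threshold, and leaving out pair 1 gave 0.13 with an adjusted p of 0.662. Pcgf2 (chromosome 11, 97688823 to 97700497), its paralog, was at 34.6, 36.7 and 36.8 CPM under DMSO and 34.5, 39.7 and 23.8 CPM under GSK-126. GSK-126 replicate 3 stood below the other libraries, which overlapped, and the log2 fold change of Pcgf2 was -0.16 (95% interval -0.44 to 0.12, edgeR adjusted p = 0.546 with the block).

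Phc2 (chromosome 4, 128654702 to 128752881), the polyhomeotic gene with the highest level, was at 182, 249.9 and 218 CPM under DMSO and 181, 212 and 177 CPM under GSK-126. The log2 ratios of the pairs were -0.015, -0.24 and -0.30, and the groups overlapped because DMSO replicate 1 lay within the GSK-126 range. The log2 fold change was -0.18 with the block (95% interval -0.34 to -0.023, unadjusted p = 0.0273, edgeR adjusted p = 0.164). With the block, 1 member (Bmi1) was thus higher and 2 (Cbx6 and Phc2) lower at an unadjusted p under 0.05, where 9.43% of all tested genes were higher and 12.1% lower (21.5% in all).

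**Figure D2:**
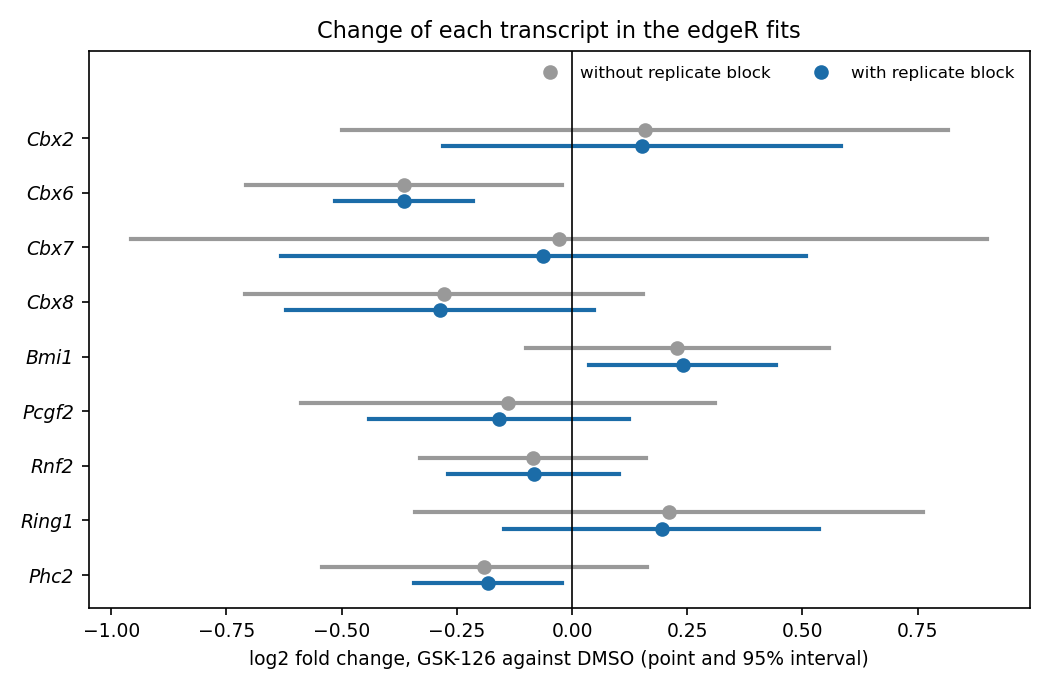
The x axis gives the log2 fold change of GSK-126 against DMSO with its 95% interval for each of the 9 genes, without the replicate block (grey) and with it (blue). The interval of Cbx6 lies below 0 in both fits, while those of Bmi1 and Phc2 exclude 0 only with the block.

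Levels of different genes were compared as CPM per kb of exon. In the DMSO libraries the order was Phc2 (30.7 ± 4.77), Cbx6 (25.5 ± 3.13), Bmi1 (19.4 ± 3.22), Rnf2 (17.0 ± 0.626), Pcgf2 (10.2 ± 0.351), Cbx8 (5.35 ± 0.489), Ring1 (4.97 ± 0.881), Cbx2 (2.37 ± 0.506) and Cbx7 (0.822 ± 0.259 CPM per kb). The DMSO ranges of Phc2 and Cbx6, of Bmi1 and Rnf2, and of Cbx8 and Ring1 overlapped, and those of the other neighbours in this order did not. With the longest coding transcript as the length, Rnf2 came before Bmi1 and Ring1 before Cbx8. Rnf2 thus stood above its paralog Ring1, Bmi1 above Pcgf2, and Cbx6 above the other CBX members, with Cbx7 the lowest of the 9.

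Shares of a gene within its family, on the scale of CPM per kb, do not depend on the scaling of the libraries, and were taken for the PCGF, RING and PHC families. Of their 11 genes, 0 had shares that did not overlap between the groups. Bmi1 made up 34.5% ± 2.71 of the PCGF family under DMSO and 39.2% ± 2.36 under GSK-126, with overlapping groups (exact permutation test, two-sided, p = 0.2). Rnf2 held 77.4% ± 3.60 and 73.8% ± 5.32 of the RING pair, and Phc2 63.7% ± 2.92 and 63.6% ± 4.25 of the PHC family. These RING and PHC shares differed by less than their spread.

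**Figure D3:**
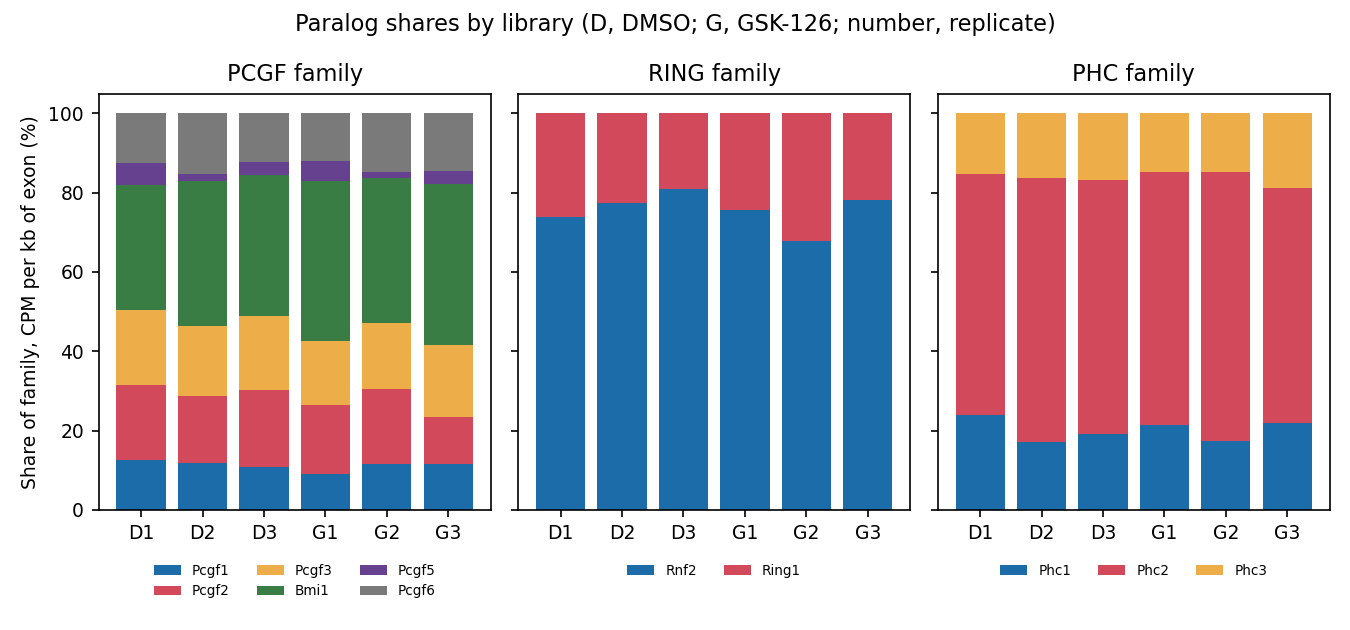
Stacked bars give the share of each paralog within its family, in percent of the summed CPM per kb of exon, for the 3 DMSO libraries (D1 to D3) and the 3 GSK-126 libraries (G1 to G3). Bmi1, Rnf2 and Phc2 hold the largest share of their families in all 6 libraries.

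The start regions of these genes were compared for CpG dinucleotides, since the KDM2B-containing variant of PRC1 binds unmethylated CpG-rich DNA. RefSeq (GRCm38.p6) held windows of 300 bases, from 250 before to 50 after a start, for 8 of the 9 genes. Bmi1 had 23 CpG in this window, a count that 21.5% of 32851 such windows reach, Ring1 37 (5.58% of windows), Cbx7 33, Cbx6 31, Rnf2 30, Cbx8 24 and Pcgf2 10, where the median of all windows is 7. Phc2 has 3 starts annotated in RefSeq, with 19, 2 and 45 CpG. The windows of Cbx6, Cbx7 and Pcgf2 lie inside the GENCODE spans of those genes, so they do not cover the outermost start. The 250 bases before the start are shown for Bmi1 (chr2:18676768-18677017, plus strand) and Ring1 (chr17:34024681-34024930, minus strand), as the member with the highest log2 fold change and the member with the most CpG among those with 1 annotated start, and RefSeq and GENCODE place both starts at the same base, with each CpG in capitals (searched as CG, which reads the same on both strands). Bmi1 holds 21 and Ring1 30 in this stretch, and no relation of CpG to RNA level was tested.
Bmi1: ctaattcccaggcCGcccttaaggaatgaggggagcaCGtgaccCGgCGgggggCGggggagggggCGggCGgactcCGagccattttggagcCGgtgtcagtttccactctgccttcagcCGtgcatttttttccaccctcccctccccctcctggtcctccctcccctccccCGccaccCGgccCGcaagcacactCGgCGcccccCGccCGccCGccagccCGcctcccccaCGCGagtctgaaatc
Ring1: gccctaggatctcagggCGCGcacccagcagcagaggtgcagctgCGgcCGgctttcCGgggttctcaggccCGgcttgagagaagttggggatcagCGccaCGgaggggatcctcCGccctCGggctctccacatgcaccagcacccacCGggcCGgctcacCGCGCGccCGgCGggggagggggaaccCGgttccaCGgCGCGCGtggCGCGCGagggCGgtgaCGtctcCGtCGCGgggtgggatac

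The other PRC1 core genes did not pass either. Of 10 such genes (4 more PCGF genes, Phc1, Phc3, Scmh1, Scml2, Rybp and Yaf2), 0 passed in either edgeR fit. At an unadjusted edgeR p under 0.05 there were 0 without the block and 1 with it (Phc3). Of all tested genes, 3.98% were under it without the block and 21.5% with it. DESeq2 called 0 with or without the block, and with the block it gave an adjusted p for 9 of the 10. The median log2 fold change of the 10 with the block was -0.067. Scml2, at 12 to 51 counts per library, had the largest value of this list, 0.85 with the block (95% interval -0.032 to 1.72, edgeR adjusted p = 0.253).

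Among 16 partners of variant PRC1, 2 fell and 0 rose with the block (edgeR), where 5.09% of all tested genes fell and 3.35% rose. Without the block 0 passed (2 at an unadjusted p under 0.05, where 3.98% of all genes were, and 0 by DESeq2). Dcaf7, a WD-repeat scaffold of PCGF3 and PCGF5 complexes, went from 401.8 ± 53.9 to 309 ± 43.5 CPM, lower in all 3 pairs, with a log2 fold change of -0.38 with the block (standard error 0.071, edgeR adjusted p = 0.00154). Csnk2b, the regulatory subunit of casein kinase 2, which joins the same complexes, went from 88.9 ± 4.27 to 71.8 ± 4.92 CPM, with a log2 fold change of -0.31 with the block (edgeR adjusted p = 0.0268). That call was lost when any 1 pair was left out of the fit, where the adjusted p ran from 0.0593 to 0.158 (edgeR), and with the block in DESeq2 (0.0791) or under total-count scaling (0.0527). Dcaf7 stayed called with any 1 pair left out, and Kdm2b, Bcor and Mga did not pass. The median of the 16 was -0.10 with the block and -0.10 without it. In the fit without the block it was -0.17 when DMSO replicate 1 was left out and -0.024 when DMSO replicate 2 was.

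The enzymes that remove H2AK119 ubiquitin, with their partners, had the lowest median of the lists, -0.20 with the block over 12 genes. In the fit without the block, 11 of the 12 had a negative log2 fold change, as did 8568 of all 16729 tested genes. Without the block the median was -0.21, and -0.079 when DMSO replicate 2 was left out. With the block 3 of 12 fell and 0 rose (edgeR), where 5.09% of all tested genes fell and 3.35% rose. Without it 0 passed (1 at an unadjusted p under 0.05, where 3.98% of all genes were, and 0 by DESeq2). The 3 were Asxl2, an activator of the deubiquitinase BAP1 (log2 fold change -0.46, edgeR adjusted p = 0.00827), Ogt, the O-GlcNAc transferase that binds the BAP1 complex (-0.37, edgeR adjusted p = 0.00213), and Mbd5, another partner (-0.32, edgeR adjusted p = 0.0360). Asxl2 did not pass without pair 2 (-0.26, adjusted p = 0.157), and Mbd5 did not pass without any 1 pair (adjusted p from 0.0710 to 0.278, edgeR), while Ogt stayed called. Mbd5 was also lost with the block in DESeq2 (adjusted p = 0.116) and under upper-quartile (0.0658) and total-count scaling (0.0719). Exons of Dcaf7, Csnk2b, Asxl2 and Mbd5 overlap genes on the opposite strand over 96, 62, 155 and 136 bp. Bap1 itself had 105 and 98.5 CPM (means, n = 3 each) and a log2 fold change of -0.091 with the block, which did not pass.

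**Figure D4:**
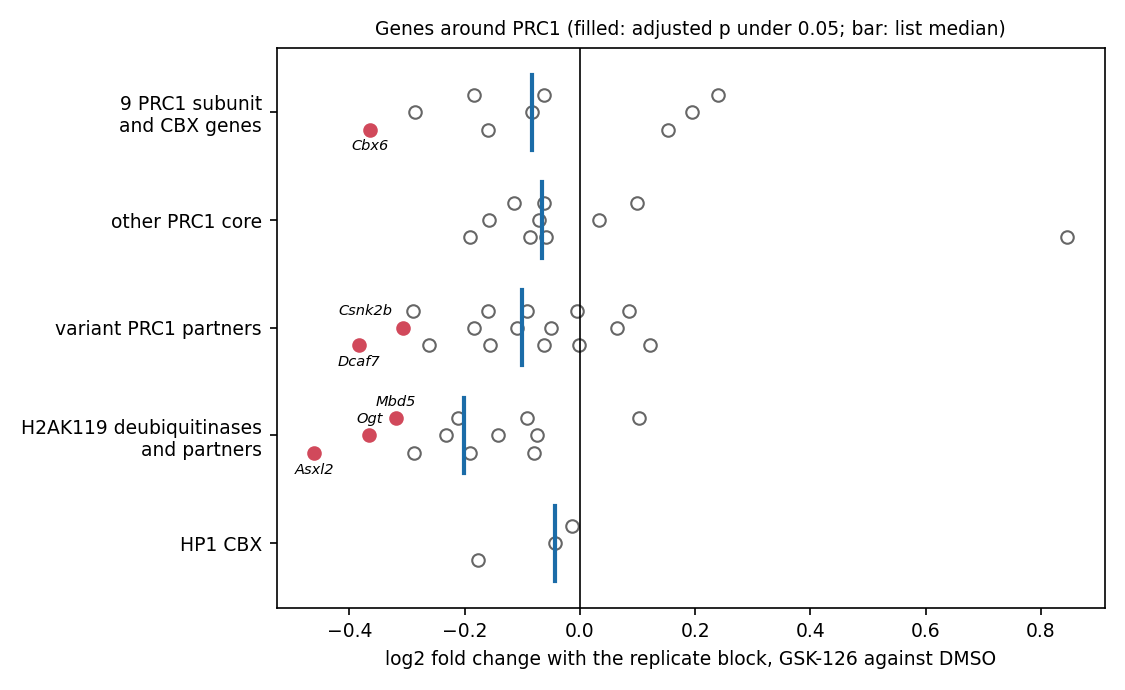
Each circle is 1 gene, placed by its log2 fold change in the fit with the replicate block, in 5 lists, and filled circles passed at an adjusted p under 0.05. All 6 filled circles (Cbx6, Dcaf7, Csnk2b, Asxl2, Ogt, Mbd5) lie to the left of 0, as do the medians of the 5 lists in this fit (blue bars), of which that of the 9 genes was 0.056 without pair 3.

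The HP1 genes, whose chromodomains read methylated lysine 9 of histone H3, gave a comparison with CBX genes outside Polycomb. Of Cbx1, Cbx3 and Cbx5, 0 passed in either edgeR fit. At an unadjusted edgeR p under 0.05, 3.98% of all tested genes passed without the block and 21.5% with it. Of the HP1 genes, 0 passed there without the block and 1 with it (Cbx5). Their log2 fold changes with the block were -0.014 (0.020 under upper-quartile or total-count scaling), -0.043 and -0.18, and DESeq2 called 0 of them with or without the block. Ezh2, the target of the inhibitor, had a log2 fold change of -0.13 and Ezh1 one of -0.033 with the block (edgeR adjusted p = 0.563 and 0.902), and the value of Ezh1 was above 0 under those scalings.

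Cdkn2a, the classical locus silenced by BMI1 and PRC1, was higher in all 3 pairs, as were 19.5% of all tested genes. With the block, 3.35% of all tested genes were called higher. Its counts, which cover the transcripts of both p16INK4A and p19ARF, were 45, 54 and 98 under DMSO and 125, 77 and 114 under GSK-126. This came to 5.19, 5.03 and 8.52 CPM under DMSO and 9.47, 8.29 and 15.2 CPM under GSK-126. The groups overlapped by DMSO replicate 3 and GSK-126 replicate 2, and the log2 fold change was 0.81 with the block (standard error 0.20, edgeR adjusted p = 0.0154) and 0.80 without it (adjusted p = 0.953). The call of Cdkn2a was lost without pair 1 (adjusted p = 0.0505), without pair 3 (adjusted p = 0.0910) and with DESeq2 and the block (adjusted p = 0.0676), while the value stayed between 0.79 and 0.85 in the edgeR fits with the block. Without the block and with 1 library left out it ran from 0.50 (without GSK-126 replicate 3) to 1.10 (without DMSO replicate 3). The part of PRC1 or of the cell mixture in the value of Cdkn2a was not tested.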

How the data were processed

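Poly-A RNA of 6 libraries was sequenced as paired reads. The authors deposited raw counts per gene, without normalization, made with Trimmomatic 0.38 (trimming), STAR 2.7.2b (alignment to GRCm38.p4) and HTSeq (counting on exons). The strand setting and Gencode release are not given in the sources used here. All 55341 symbols match GENCODE M21, which gave coordinates and exon lengths. The 5 lines that name no gene (58.7% to 60.7% of listed reads) were left out. Among them, reads assigned to no counted exon made up 45.3% to 46.6% of listed reads, and ambiguous reads 0.883% to 1.10%. The part of the strand setting in this was not tested.

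Counts were tested in R 4.3.3 with edgeR 4.0.16 (TMM, filterByExpr, quasi-likelihood test, no block), with Benjamini-Hochberg adjustment over all 16729 tested genes and calls at an adjusted p under 0.05. DESeq2 1.42.0 was an alternative. Intervals are 95% intervals of the fit. Libraries were paired by replicate number, a pairing that the labels do not spell out. Deviations from group means correlated at 0.56, 0.63 and 0.49 for same-numbered libraries and at 0.0064 or less otherwise. Taking deviations within each group lowers the other correlations once the same-numbered ones are positive, so these lower values are no separate support. The biological coefficient of variation was 24.0% without and 9.74% with the block. Libraries were not copies of one another (chi-square per degree of freedom 9.08 or more). The script was checked on simulated counts. Members and lists were chosen with earlier results of these data known. The genes named are the 9 members, their paralogs, list genes that passed in either fit, HP1 genes, Ezh1, Ezh2 and Cdkn2a, and a few others given for context after their values were seen. Counts were few for Cbx7 and Scml2. Other settings tried were 2 scalings, 2 filters, left-out libraries and pairs, and an adjusted p under 0.01. Exact tests on shares used CPM per kb of the union of exons and ignored the pairs. Another gene is not reported here, and the PRC1 core list was counted without it.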

Additional observations from a re-analysis of the deposited data

How the results depend on the processing

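Adding the replicate block moved the counts most. All tested genes called went from 0 to 1412 (561 higher and 851 lower), and to 1088, 833 and 1277 with the block and without pair 1, 2 and 3. The block in DESeq2 gave 987, out of the 12837 genes that got an adjusted p there. That smaller set held 8 of the 9 members and left out Cbx7. With the block, upper-quartile scaling gave 1425 (727 higher and 698 lower), total counts 1421 (714 and 707), and an adjusted p under 0.01 gave 716. Without the block, DESeq2 called 21 and no filter 10. Members called went from 0 to 1 with the block, with either tool, scaling or threshold, and to 1 to 2 with 1 pair left out. Partners of variant PRC1 went from 0 to 2 with the block and with the block and upper-quartile scaling, and to 1 with the block in DESeq2, with total counts, at an adjusted p under 0.01 and with any pair left out. The deubiquitinase list went from 0 to 3 with the block, to 2 with it in DESeq2, under each other scaling and at 0.01, and to 1 to 2 with 1 pair left out. The block fits with another scaling or threshold, and shares by the longest transcript, were chosen after seeing the data.

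Paralogs whose shares did not overlap between groups numbered 0, and 2 by plain CPM and 0 to 3 with 1 library left out. Of the 11 paralogs, 2 had all within-pair differences of one sign, and no block was fitted to the shares. These counts have no background over all genes and are not read as a result.

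Cbx6 stayed between -0.45 and -0.26 (log2) under all settings. Some signs turned. With 1 library left out, Cbx2 ran from -0.077 to 0.35, Cbx7 from -0.27 to 0.27, Pcgf2 from -0.28 to 0.042, Ring1 from -0.0062 to 0.35, Cbx1 from -0.065 to 0.042, Cbx3 from -0.090 to 0.020, Ezh2 from -0.29 to 0.048 and Ezh1 from -0.0995 to 0.067. With the block, Cbx2 was -0.0035 without pair 1, Ezh1 0.049 without pair 2, and Cbx7, Pcgf2 and Cbx1 0.18, 0.056 and 0.033 without pair 3. Upper-quartile scaling turned Cbx7 (0.0072) and Cbx1 (0.021), and with the block Ezh1 (0.00080) and Cbx1 (0.020). Total counts turned Cbx7 (0.014) and Cbx1 (0.020), and with the block Ezh1 (0.0015) and Cbx1 (0.020). Cbx1 was also 0.0020 with no filter and 0.0036 with at least 10 counts in every library. The median of the 9 members ran from -0.26 (without GSK-126 replicate 2) to 0.042 (without GSK-126 replicate 3), and was 0.056 with the block without pair 3. Without the block, the median of the other PRC1 core was 0.028 without DMSO replicate 2 and that of the HP1 genes 0.014 without GSK-126 replicate 3. The cause was not tested.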

Other observations

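Pcgf5, a PCGF protein of variant PRC1, differed more between replicate numbers than between groups. It was at 35.9, 13.1 and 23.5 CPM in DMSO replicates 1, 2 and 3 and at 35.4, 12 and 22.7 CPM in GSK-126 replicates 1, 2 and 3. Its log2 fold change was -0.059 with the block (95% interval -0.34 to 0.22). The summed level of the 8 astroglial markers had the same order, at 7022, 2170 and 3899 CPM under DMSO and 7427, 2116 and 3879 CPM under GSK-126. Cbx2, Cbx6, Cbx7 and Phc2, in contrast, were highest in replicate 2 of both groups, where the astroglial sum was lowest. The sum of the 12 granule neuron markers was also highest there. It was 4500, 7290 and 5053 CPM in DMSO replicates 1, 2 and 3 and 3549, 5653 and 3836 CPM in GSK-126 replicates 1, 2 and 3. The part of the cell mixture or of the mix of sexes in these levels was not tested.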
